A study of Mus musculus with 7 samples.

Results

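Triglyceride synthesis and lipolysis are described here through 8 genes, *Gpam*, *Agpat3*, *Lpin1*, *Dgat1*, *Dgat2*, *Pnpla2*, *Lipe* and *Pnpla3*, in ChIP-seq peak lists from mouse gastrocnemius, a fast hindlimb muscle. They are 8 of the 21951 protein-coding genes of the annotation, and their peaks are all peaks that overlap the gene body or lie within 10 kb of an annotated transcription start site (TSS). The chromatin came from wild-type male C57BL/6J mice, 5 months of age, on standard chow and a light-dark cycle. BMAL1 was mapped at ZT 4, REV-ERBα at ZT 8 and RNA polymerase II (RNAP2) at ZT 4, in 2 replicates each, where ZT is the number of hours after lights on. Whole muscle was used, so a peak cannot be assigned to a cell type, and the different sampling times of BMAL1 and REV-ERBα cannot be told apart from the different antibodies. No sample in these lists lacks BMAL1 or REV-ERBα.

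Muscle stores fatty acids as triglyceride in lipid droplets. Glycerol-3-phosphate is acylated by GPAM and then by AGPAT enzymes, lipins remove the phosphate, and DGAT1 or DGAT2 add the last fatty acid. Lipolysis runs the other way, with ATGL (encoded by *Pnpla2*) removing the first fatty acid and hormone-sensitive lipase (*Lipe*) the next. BMAL1 is the activator of the core clock and binds E-boxes, and REV-ERBα is a repressor that binds nuclear receptor half-sites or is tethered through other factors.

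All positions are those of GRCm38 (mm10). Of the synthesis genes, *Gpam* (chr19:55067268-55127238), *Agpat3* (chr10:78269178-78352489) and *Lpin1* (chr12:16535669-16610966) are long genes of 60.0, 83.3 and 75.3 kb on the minus strand, so most of their windows is gene body. *Dgat1* (chr15:76502015-76511953) and *Dgat2* (chr7:99153658-99182719), also on the minus strand, are 9.94 and 29.1 kb long, and the proteins they encode are unrelated in sequence although they catalyse the same reaction. Of the remaining genes, *Pnpla2* (chr7:141455198-141460743) and *Pnpla3* (chr15:84167837-84187236) lie on the plus strand and *Lipe* (chr7:25379527-25398710) on the minus strand. In windows of this kind neighbouring genes can fall inside, and the TSS nearest to a summit is therefore named where it belongs to another gene.

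Replicates 1 and 2 of BMAL1 had 34737 and 177669 listed peaks. REV-ERBα had 28881 and 29934, and RNAP2 had 87870 and 168821. The median peak rested on 5 to 9 reads at its summit over a genome-wide background of 1.40 to 3.50 reads. These reads were recovered from the fold and p of each peak, and all intervals below are exact 95% Poisson intervals that cover counting error only. Of the peaks in a list, 1.57% to 13.1% were overlapped by a peak of the other replicate. RNAP2 had a region in both replicates at each of 4 skeletal muscle genes, *Acta1*, *Ckm*, *Myh4* and *Mylpf*. Their highest −log10 p ran from 131 and 39.9 at *Acta1* down to 36.6 and 10.3 at *Mylpf*. Of 4 adipocyte genes, *Adipoq*, *Plin1* and *Cidec* had no RNAP2 region in both replicates, whereas *Fabp4* had 2, with a highest −log10 p of 11.6 and 2.60. The part of fat cells in the values below was not tested.

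A single peak needs to be described before the results. In the list of BMAL1 replicate 1, the peaks are numbered in order of position from 1 to 34736, with a single exception. The peak at the *Dgat2* promoter carries the number 34737 and stands between peaks 31002 and 31003. The other 5 lists, with 493175 peaks, had no peak numbered out of order. The fold of 2.76 and the −log10 p of 3.40 of this peak correspond to 9 reads over a background of 2.62 reads. The genome-wide background of that list was 3.50 reads, and it is the lowest background of the other 34735 peaks whose reads could be recovered. In the other 5 lists, too, 0 peaks lay below the genome-wide background. At that background, 9 reads correspond to a fold of 2.22 and a −log10 p of 2.48, a pair that 7020 other peaks of the list carried. The origin of this peak was not tested, and the counts at the 8 genes that depend on it are given with and without it.

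The sequence under the *Dgat2* peaks is shown because it holds the REV-ERBα summits of both replicates, the summit and part of the BMAL1 peak just described, and the E-boxes of this promoter. It is the reference sequence at chr7:99182890-99183189 (GRCm38, minus strand, −470 to −171 bp from the TSS), and the intronic amplicon that the study used for ChIP-qPCR is given below it (chr7:99168905-99168999, minus strand). Capitals mark the canonical E-box CACGTG, its variant CACGTT, the palindrome CAGCTG with another core, and the nuclear receptor half-sites AGGTCA and then GGGTCA, each searched on both strands. These motifs did not overlap one another here.
Dgat2 promoter: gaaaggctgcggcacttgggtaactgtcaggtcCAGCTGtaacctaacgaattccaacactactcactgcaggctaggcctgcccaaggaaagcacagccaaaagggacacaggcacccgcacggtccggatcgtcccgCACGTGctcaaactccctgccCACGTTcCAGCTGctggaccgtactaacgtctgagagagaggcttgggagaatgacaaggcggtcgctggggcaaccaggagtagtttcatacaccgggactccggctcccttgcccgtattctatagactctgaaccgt
Dgat2 intron amplicon: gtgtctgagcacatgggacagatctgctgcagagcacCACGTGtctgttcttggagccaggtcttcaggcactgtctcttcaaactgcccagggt
The promoter sequence held CACGTG at −331 to −326 bp, CACGTT at −310 to −305 bp, and CAGCTG at −437 to −432 bp and at −303 to −298 bp. Neither half-site was found in it. The promoter amplicon of the study spans chr7:99182967-99183102 and takes in CACGTG, the variant CACGTT and the nearer palindrome. Both REV-ERBα peaks, the BMAL1 peak of replicate 1 numbered out of order and the RNAP2 peak of replicate 2 overlapped it, all with summits outside it. The BMAL1 summit, at chr7:99182966, lay directly next to its edge. The RNAP2 peak ended at chr7:99182967 and so only touched that edge. The intron amplicon holds CACGTG as well, and 0 peaks of the 6 lists overlapped it.

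REV-ERBα peaks lay at the *Dgat2* promoter in both replicates (chr7:99182673-99183148), and REV-ERBα had no region in both replicates at any of the other 7 genes. A region was counted when peaks of both replicates overlapped by at least 1 bp. The count of 1 of 8 genes stood beside 4.44% of all protein-coding genes with such a region in the same kind of window. *Dgat2* encodes an acyltransferase of the last step of triglyceride synthesis. The −log10 p of its REV-ERBα peak was 21.4 in replicate 1 and 19.9 in the other, with a fold over the local background of 5.64 and 5.77. The summits held 45 reads (interval 32.8 to 60.2) over a background of 7.16, and 40 reads (28.6 to 54.5) over 6.11. The replicates thus overlapped within counting error, and both intervals lay above their backgrounds. The summits were 6 bp apart, at −184 and −178 bp from the outermost TSS of *Dgat2*, outside the transcribed part of the gene. Ranked by its weaker replicate, the region was number 70 of the 1263 REV-ERBα regions, and its q-value was small in both lists (−log10 q of 16.3 and 14.8).

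CACGTG lay 144 and 150 bp from the REV-ERBα summits, CACGTT 123 and 129 bp, and the nearer CAGCTG 116 and 122 bp. Within 150 bp of the summit, CACGTG was found at 5.70% of all REV-ERBα regions and at 6.58% of windows of the same length centred on the TSSs of protein-coding genes. The shares were 4.04% and 5.02% for CACGTT, and 17.7% and 17.7% for CAGCTG. The nuclear receptor half-site AGGTCA was found at 18.8% of REV-ERBα regions and 14.8% of promoters, and GGGTCA at 12.0% and 14.2%. Neither occurred within 150 bp of the REV-ERBα summits at *Dgat2*, nor did the DR1, DR2 or GRE consensus. The letters CACGTG fell inside the window of replicate 1 but not wholly inside that of replicate 2.

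**Figure D1:**
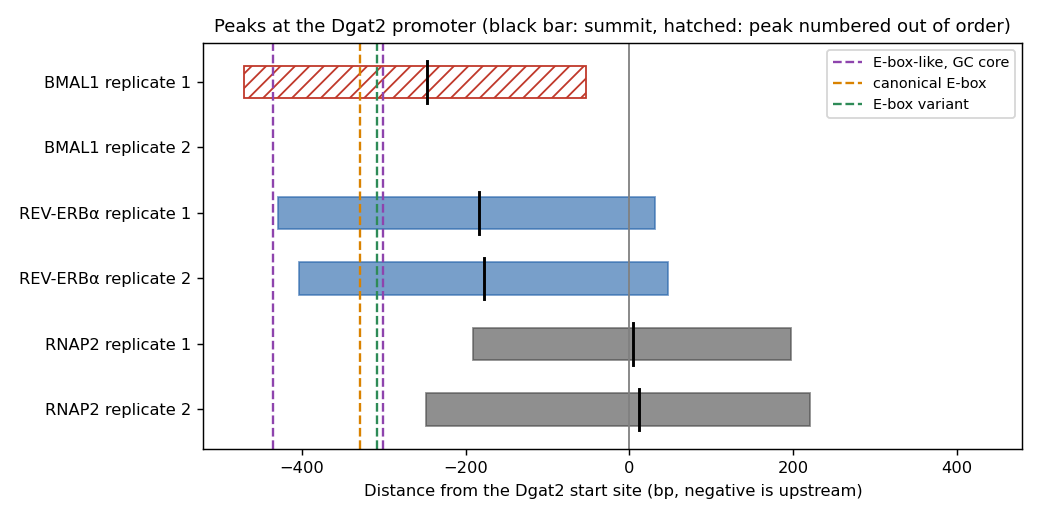
Peaks of the 6 lists at the *Dgat2* promoter by distance from the TSS in bp, with summits as black bars and E-box motifs as dashed lines. The REV-ERBα summits of both replicates lie at −184 and −178 bp, BMAL1 replicate 2 has no peak, and the hatched BMAL1 peak of replicate 1 is the peak numbered out of order.

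The other 7 genes had 13 REV-ERBα peaks, each in a single replicate. Their −log10 p ran from 1.59 to 4.35 and their reads from 7 to 12, and 0 of them had a −log10 q of at least 1.3. Any REV-ERBα peak was found at 7 of 8 genes in replicate 1, where 38.7% of all genes had one, and at 5 of 8 in replicate 2, against 40.1%. Since no gene but *Dgat2* had peaks at the same place, the counts by replicate describe scattered low peaks. *Lpin1*, a phosphatidic acid phosphatase, had the strongest of these, a peak of replicate 2 with 12 reads (6.20 to 21.0) at −7864 bp. *Lipe* had a peak of 9 reads at an upstream start (69 bp downstream of it) in replicate 1 and a peak of 10 reads near an internal start (184 bp downstream) in replicate 2, which did not overlap. The peak of *Pnpla2* in replicate 1 (10 reads) lay at −345 bp from the TSS of *Cracr2b*, and that of *Dgat1* (7 reads) lay 550 bp from the TSS of *Hsf1*, both closer to those genes than to the lipid gene. *Agpat3*, which acylates lysophosphatidic acid, had peaks of 11 reads in both replicates, at different places.

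BMAL1 had no region in both replicates at any of the 8 genes. The count of 0 of 8 stood beside 6.81% of all protein-coding genes. In replicate 1, 2 of 8 genes had a peak, *Gpam* and *Dgat2*, against 38.2% of all genes. Without the *Dgat2* peak numbered out of order, 1 of 8 genes had a peak, that of *Gpam*, with 8 reads over 3.50 (interval 3.45 to 15.8) in an intron. In replicate 2, 7 of 8 genes had a peak (all but *Pnpla2*), against 84.3% of all genes. The 50 peaks of replicate 2 had 5 to 9 reads and a −log10 p of 1.38 to 3.60, and 37 of them sat at the genome-wide background of 2.47 reads. Of the 52 BMAL1 peaks in all, 0 had a −log10 q of at least 1.3.

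The strongest of these peaks lay in introns. They were a *Pnpla3* peak of 9 reads (4.12 to 17.1) with a −log10 p of 3.60 and a *Lpin1* peak of 9 reads with a −log10 p of 3.56. *Agpat3* had 15 of the 50 peaks, the highest number, in the longest window (94.1 kb), and *Gpam* had 9. A peak of 8 reads lay 27 bp from a TSS of *Lipe*, where replicate 1 had none.

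At the *Dgat2* promoter itself, BMAL1 replicate 2 had no peak. With the genome-wide background of 2.47 reads, 5 reads would have been listed there, but a higher local background would raise that number. The local background of that list at the promoter is not known. At the REV-ERBα summits there it was 7.16 and 6.11 reads, beside genome-wide values of 3.48 and 3.31. At the RNAP2 summits it was 3.15 and 2.91, beside 1.40 and 1.79. The missing peak therefore does not give the number of reads there. The 2 peaks of BMAL1 replicate 2 in the *Dgat2* window lay in introns, with 7 and 6 reads. The peak of replicate 1 numbered out of order had 9 reads (interval 4.12 to 17.1), a −log10 p of 3.40 and a −log10 q of 0, with its summit at −247 bp, 81 bp from CACGTG and 60 bp from CACGTT. No other peak of replicate 1 lay in the *Dgat2* window, so without this peak neither BMAL1 list had a peak at the promoter. From its ChIP-seq, the study named peaks of both BMAL1 and REV-ERBα near *Dgat2*. It placed 2 likely tandem E-boxes at the middle of its BMAL1 summit there. By ChIP-qPCR, a separate assay, the study reported BMAL1 binding at the *Dgat2* promoter in wild-type muscle, attenuated in muscle lacking BMAL1. It reported no binding at the intronic site. It also reported that BMAL1 and its partner CLOCK together induced a *Dgat2* reporter in cultured cells. In muscle lacking BMAL1, it reported reduced *Dgat2* expression with a blunted oscillation. The ChIP-qPCR, reporter and expression results are not part of the peak lists and were not tested here.

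A shared site was counted where overlapping peaks came from 3 or more of the 4 lists of BMAL1 and REV-ERBα. *Dgat2* had a shared site, at its promoter, and 1 of 8 genes stood beside 1.62% of all genes. It was made of both REV-ERBα peaks and the BMAL1 peak numbered out of order. Without that peak, 0 of 8 genes had a shared site, beside 1.61% of all genes. The presence of a shared BMAL1 and REV-ERBα site at *Dgat2* therefore rested on that single peak, whereas the REV-ERBα region did not.

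**Figure D2:**
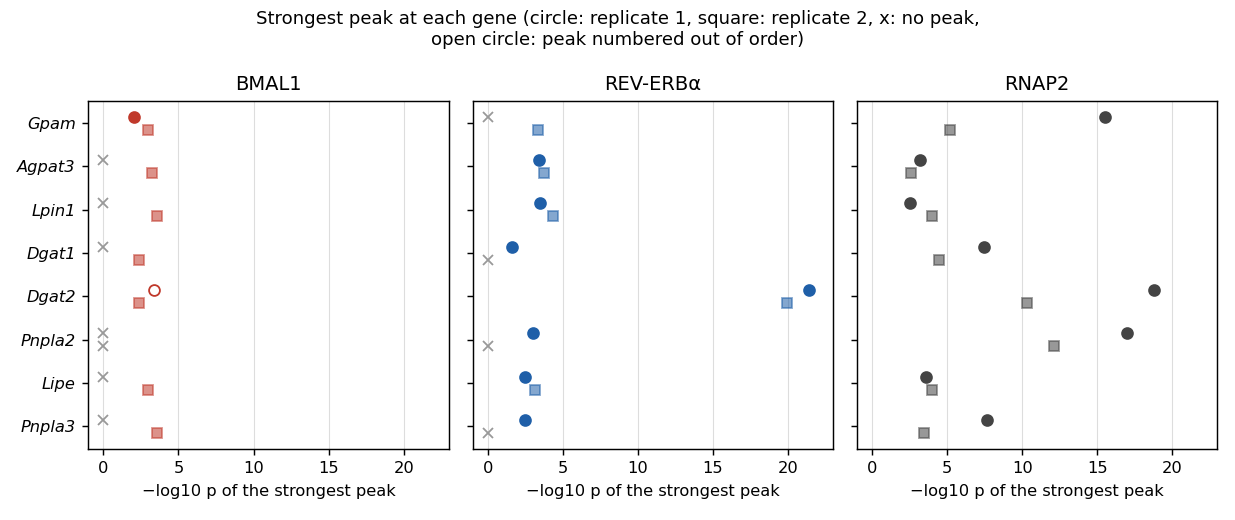
Strongest peak of each gene (−log10 p, horizontal axis) in each list, with a panel for each factor. REV-ERBα at *Dgat2* stands at 21.4 and 19.9, all other REV-ERBα values lie at 4.35 or less, BMAL1 values lie at 3.60 or less, and the open circle is the *Dgat2* peak numbered out of order.

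RNAP2 had a region in both replicates at 7 of 8 genes, all but *Agpat3*, beside 41.1% of all genes. Close to a TSS (within 1 kb), 5 of 8 genes had such a region, beside 30.5% of all genes. Genes with windows of 21.8 to 94.1 kb, the range of these 8, had an RNAP2 region in both replicates in 44.3%. Any RNAP2 peak was found at 8 of 8 genes in each replicate, where 76.9% and 86.4% of all genes had one. The 9 regions in both replicates fell into 5 near the gene's own TSS, 2 nearest to the TSS of another gene and 2 away from any TSS of the gene. In 7 of the 9, the −log10 p was higher in replicate 1.

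In replicate 1 the promoters with the most RNAP2 reads among the 8 genes were those of *Dgat2*, *Pnpla2* and *Gpam*, and in replicate 2 *Gpam* and *Dgat1* held 10 reads each. At *Dgat2* the summits held 29 reads (19.4 to 41.6) and 19 reads (11.4 to 29.7), with a −log10 p of 18.8 and 10.3, in the 5′ UTR exon next to the TSS (region chr7:99182500-99182967). *Pnpla2*, whose product starts triglyceride breakdown, held 20 reads (12.2 to 30.9) and 13 reads (6.92 to 22.2) at 22 and 1 bp from a TSS, with a −log10 p of 17.0 and 7.34 (chr7:141455053-141456549). *Gpam*, the mitochondrial acyltransferase of the entry step, held 20 reads (12.2 to 30.9) and 10 reads (4.80 to 18.4), with a −log10 p of 15.5 and 5.21 (chr19:55099167-55099776). The intervals of these genes overlapped within each replicate, so their order was not resolved at this depth. At *Gpam* the RNAP2 summits lay 19 and 29 bp downstream of an internal start of *Gpam*, and not at the 5′ end of the annotated gene. *Dgat1*, the other acyltransferase of the last step, held 12 and 10 reads with a −log10 p of 7.43 and 4.44 (chr15:76511646-76512179), and the upper bounds of these reads, 21.0 and 18.4, reached into the *Dgat2* intervals. *Lipe* held 8 and 8 reads (3.45 to 15.8 each) around an internal start, with summits 291 bp apart.

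The upstream sequences of these internal starts are shown because RNAP2 regions in both replicates lay there and not at the outer ends of the genes. The *Lipe* region was weak, with a −log10 q of 0.717 and 0.592, beside 11.5 and 1.65 at *Gpam*. Its summits lay on opposite sides of the start, at 147 and −144 bp. The sequences are the 250 bases before the RefSeq start (GRCm38.p6, minus strand), at chr19:55099478-55099727 and chr7:25390113-25390362, with the same motifs in capitals. Promoters of 6 of the 8 genes were matched in RefSeq, and those of *Dgat1* and *Dgat2* were not.
Gpam internal start: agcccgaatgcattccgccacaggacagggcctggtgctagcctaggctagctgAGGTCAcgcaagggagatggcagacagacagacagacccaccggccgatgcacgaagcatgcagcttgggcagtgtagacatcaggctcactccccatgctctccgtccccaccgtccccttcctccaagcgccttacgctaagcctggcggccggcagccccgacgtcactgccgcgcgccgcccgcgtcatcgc
Lipe internal start: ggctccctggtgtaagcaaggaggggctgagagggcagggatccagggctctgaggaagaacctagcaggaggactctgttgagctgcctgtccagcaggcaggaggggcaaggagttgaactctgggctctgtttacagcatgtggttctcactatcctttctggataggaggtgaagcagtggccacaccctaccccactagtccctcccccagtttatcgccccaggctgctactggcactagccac
The *Gpam* sequence held AGGTCA, and that of *Lipe* held none of the motifs. In promoter windows of 301 bases centred on the TSS, AGGTCA was found at 14.8% and CACGTG at 6.58%. Of the other matched promoters, that of *Agpat3* held CACGTT, that of *Lpin1* AGGTCA and that of *Pnpla3* CAGCTG. The upstream RefSeq start of *Lipe* holds CACGTG in its promoter, shown for comparison (chr7:25395988-25396237, minus strand), where no RNAP2 region was present in both replicates.
Lipe upstream start: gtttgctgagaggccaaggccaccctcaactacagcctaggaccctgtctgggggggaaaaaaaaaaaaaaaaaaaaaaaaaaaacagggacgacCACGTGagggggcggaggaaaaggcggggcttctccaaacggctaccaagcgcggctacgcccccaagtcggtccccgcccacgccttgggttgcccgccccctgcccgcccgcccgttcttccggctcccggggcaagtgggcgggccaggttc
Around the RNAP2 summits of replicate 1, CAGCTG was found in 3 of the 9 regions of the 8 genes, at *Gpam*, *Dgat1* and a *Pnpla3* region, beside 16.1% of all RNAP2 regions. GGGTCA was found in 3 of 9, at *Dgat2*, *Gpam* and a *Pnpla3* region, beside 13.7%. AGGTCA was found in 2 of 9, at *Lpin1* and a *Pnpla3* region, beside 14.0%. CACGTG was found in 0 of 9, beside 6.91%, and around the summits of replicate 2 in 1 of 9, the region at the TSS of *Rplp2* in the *Pnpla2* window.

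Weak or displaced RNAP2 regions made up the rest. *Lpin1* had a region of 5 and 5 reads in an intron, 18500 bp from the nearest TSS, with a −log10 p of 2.45 and 1.99, and no RNAP2 region at a TSS. It held the DR1 consensus in replicate 1, which 0.149% of RNAP2 regions and 0.171% of promoters did, and AGGTCA, which is part of that consensus. *Pnpla3*, a lipid droplet protein, had a region of 5 and 6 reads beyond the end of the gene and a stronger region of 14 and 10 reads, at −86 and 6 bp from the TSS of *Samm50*, a mitochondrial outer membrane gene. A region of 23 and 19 reads in the *Pnpla2* window lay at the TSS of *Rplp2*, a ribosomal protein gene, and not at *Pnpla2*. *Agpat3* had a peak of 6 reads at its TSS in replicate 1 and none there in replicate 2.

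**Figure D3:**
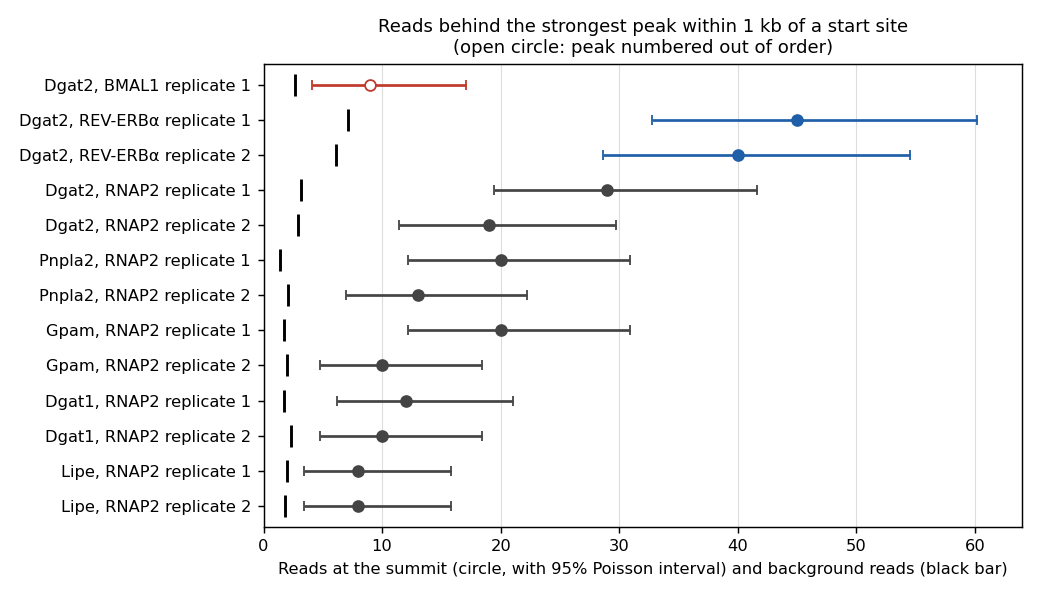
Reads at the summit (circles, with exact 95% Poisson intervals) and background reads (black bars) for the strongest peak within 1 kb of a TSS. REV-ERBα at *Dgat2* stands at 45 and 40 reads, RNAP2 at the 5 genes at 8 to 29, and the open circle marks 9 reads of the BMAL1 peak numbered out of order.

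The windows of the 8 genes covered 412 kb in all. REV-ERBα peaks lay there at 0.170 and 0.194 per 10 kb, beside 0.121 and 0.128 over the windows of all genes. For BMAL1 the densities were 0.0485 beside 0.141 in replicate 1 (0.0243 without the peak numbered out of order) and 1.21 beside 0.779 in replicate 2. RNAP2 peaks lay at 0.655 per 10 kb in both replicates, beside 0.412 and 0.699.

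**Figure D4:**
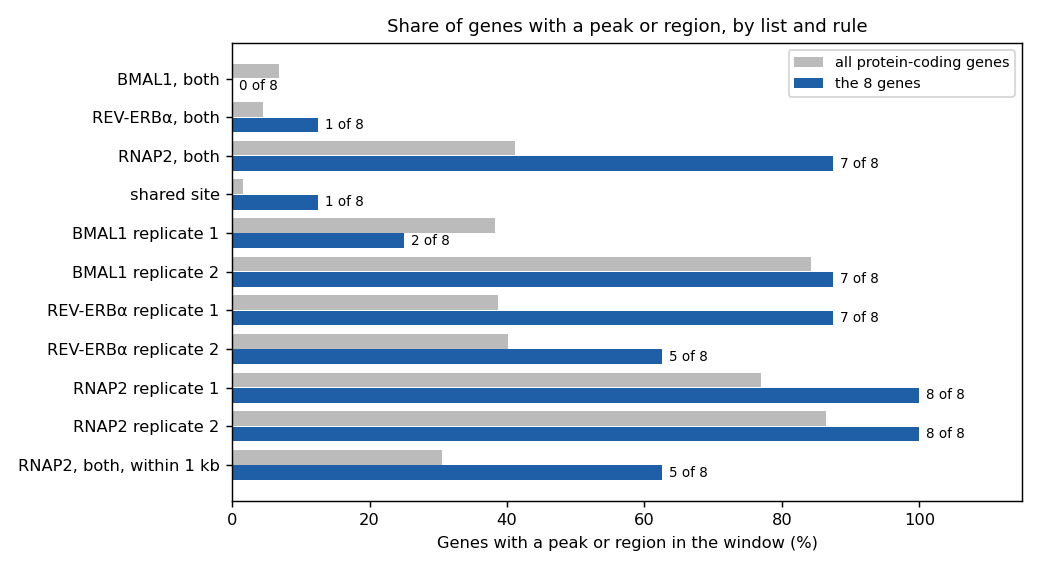
Share of genes (%) with a peak or region in the window, for all protein-coding genes (grey) and the 8 genes (blue, with counts). RNAP2 was found in both replicates at 7 of 8 genes beside 41.1%, and the shared site at 1 of 8 rests on the *Dgat2* peak numbered out of order.

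A list of 26 further genes of triglyceride metabolism was read in the same way. BMAL1 had a region in both replicates at 4 of 26, beside 6.81% of all genes. They were *Gpat3*, *Gpat4*, *Agpat4* and *Mgll*, with all regions in introns and more than 7 kb from a TSS. That of *Mgll*, which encodes monoacylglycerol lipase, had 11 and 8 reads, and that of *Gpat4*, an acyltransferase of the endoplasmic reticulum, had 10 and 8. The other 2 were weaker. That of *Agpat4* had 8 and 8 reads with a −log10 p of 2.01 and 2.98. That of *Gpat3* had 8 and 5 reads with a −log10 p of 1.57 and 1.40. REV-ERBα had a region at 2 of 26, beside 4.44%. That of *Fitm1*, a muscle protein of lipid droplet formation, lay at its TSS with 11 and 12 reads and a −log10 p of 3.17 and 3.76. That of *Gpd1*, which supplies glycerol-3-phosphate, lay in its 3′ UTR and was nearest to *Cox14*, with 14 and 13 reads. RNAP2 had a region at 13 of 26, beside 41.1%, and a shared site was found at 0 of 26, beside 1.62%.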

How the data were processed

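The authors aligned ChIP-seq reads to mm10 (GRCm38) with BWA. They removed duplicate and multi-mapping reads. Before peak calling they reduced the larger library of each factor to about the read number of the smaller, so the reads given here are those of reduced libraries. Each replicate was called by itself with MACS2 2.1.1, with input DNA as control and 0.05 as the largest p-value. The deposited values of each peak are its fold over the local background, a linear ratio, and its −log10 p and −log10 q at the summit. A deposited score and the input, which has no peak list, were not used.

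Genes and TSSs came from GENCODE M21. Regions are peaks joined where they share 1 bp or more. The fold and p at a summit fix the whole number of reads and the background under the Poisson model of MACS2, here within 0.001 of the −log10 p. All peaks but 1 were recovered this way, and in up to 0.735% of a list another whole number came as close, but at none of the peaks at the 8 genes. No test across animals was made, and each count stands beside the share of all genes. The peak lists do not give library totals, and none were used. A BMAL1 peak numbered out of order was kept in the counts and left out as an alternative added after the data were seen. The code was tested on simulated data and used Python 3.11.15, SciPy 1.17.1 and samtools 1.23.1. The 8 genes, the lists and the motifs were chosen with earlier results of these data known. Genes named are the 8, those nearest to a region in both replicates, and pathway genes with a BMAL1 or REV-ERBα region. *Cracr2b* and *Hsf1* were named after their values were seen.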

Additional observations from a re-analysis of the deposited data

How the results depend on the processing

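Leaving out the *Dgat2* peak of BMAL1 replicate 1 numbered out of order, an alternative chosen after seeing the data, moved the genes with a shared site from 1 to 0 of 8 and those with a BMAL1 peak of replicate 1 from 2 to 1. BMAL1 regions in both replicates stayed at 0 of 8 with windows of 50 kb (13.4% of all genes) and with summits within 500 bp (7.03%). The stricter thresholds, the stricter overlap rule and the narrower windows could not raise that count. With a −log10 q of at least 1.3, RNAP2 regions were left at 3 of 8 genes (*Gpam*, *Dgat2*, *Pnpla2*), beside 18.9% of all genes. Shared sites were left at 0, beside 0.169%. With windows of 50 kb, 3 genes had a REV-ERBα region (*Lpin1*, *Dgat2*, *Pnpla2*), beside 9.61% of all genes. In these wider windows 2 had a shared site (*Lpin1*, *Dgat2*), beside 3.40%, or 1 (*Lpin1*) without the peak numbered out of order as well. Without that peak, the shared count was 0 under each of the other alternatives. The REV-ERBα count was 1, *Dgat2*, under the other thresholds, overlap rules and windows, beside 1.37% to 4.35% of all genes. The RNAP2 count was 5 to 7 there, beside 29.4% to 60.2%. When a single replicate was left out, any peak of the other then counted, and the genes ranged from 2 to 7 for BMAL1 (from 1 to 7 without the peak numbered out of order), from 5 to 7 for REV-ERBα and stayed at 8 for RNAP2. Shared sites ranged from 0 to 1, with 0 without BMAL1 replicate 1 and without either REV-ERBα replicate. The *Dgat2* site came from 3 lists and 3 were still required, so it could not remain when 1 of them was left out. Of 37 strongest values, 22 were equal within 2 kb of a TSS, 2 were lower and 13 had no peak there. Within 50 bases of the summit, no motif was found at the *Dgat2* REV-ERBα region. No paired analysis was possible because no result comes from a test. With 5 to 9 reads behind a median peak, weaker occupancy was not detectable at this depth.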
